A study of Mus musculus with 12 samples.

Results

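The 9 genes described here encode proteins of the lysosome: the proteases Ctsl, Ctsb, Ctsd and Lgmn, the lipid and glycan degradation genes Psap and Hexa, the lysosomal regulator Grn, and the membrane proteins Lamp1 and Gpnmb. They are 9 of the 52962 genes in the deposited gene table. They were chosen by symbol from earlier results of these data, over all 12 libraries, to show which lysosomal genes rods carry in every group and which stand high in a single group. Their levels and the differences between groups therefore chose them, and both are given as descriptions with no test. Psap, the precursor of the saposins, and Grn, progranulin, are neither hydrolases nor membrane proteins themselves, so the name "lysosomal genes" is used below.

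The lysosome is the acid compartment in which cells break down proteins, lipids and glycans taken up from outside or delivered by autophagy. Its soluble enzymes are made as precursors, sorted from the Golgi and activated at low pH, while heavily glycosylated membrane proteins line its inner face and a proton pump, the V-ATPase, acidifies it. Every cell, rods included, makes lysosomes, and phagocytes such as macrophages, microglia and the retinal pigment epithelium are known for a high lysosomal content. TFEB and its relatives are transcription factors known to act on many lysosomal genes through sites with the core CACGTG.

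The libraries came from mouse retinas electroporated with plasmid DNA and collected at postnatal day 8, from which GFP-positive rods, the photoreceptors of dim light, were picked by hand, 50 to 100 cells to a library. The study asks how protein kinase CK2, whose catalytic subunit Csnk2a1 encodes, bears on gene expression in rods. Each of the 4 groups held 3 libraries: shRNA mCsnk2a1, a hairpin against mouse Csnk2a1; shRNA Control, its control hairpin; pcDNA4c mCsnk2a1, an expression vector carrying mouse Csnk2a1; and pcDNA4c Control, the vector control. The labels call the RNA samples independent but do not say whether they came from separate animals, so SDs and p-values cover the spread between these 3 samples, which may be technical. The mouse strain and the promoter behind the GFP or the insert are not given in the sources used here. A library pools picked cells, so more cells of a type and more RNA per cell cannot be told apart in any value below.

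Library totals lay between 2840426 and 3567121 estimated counts in shRNA mCsnk2a1, 1608926 and 1856775 in shRNA Control, 2296056 and 3551328 in pcDNA4c mCsnk2a1, and 1692419 and 2017623 in pcDNA4c Control. Genes with a count numbered 16164 to 22146 in the 9 libraries outside pcDNA4c Control and 22688 to 25326 in pcDNA4c Control. All 14 rod markers, Nrl among them, had counts in every group. Csnk2a1 itself had 12.0, 22.2 and 36.0 CPM (counts relative to the library total, scaled between libraries by edgeR's TMM factors) in shRNA mCsnk2a1, against 66.9, 57.2 and 8.51 CPM in shRNA Control, so that 1 control library, the last, lay below all knockdown libraries. It had 49.9, 145 and 122 CPM in pcDNA4c mCsnk2a1, against 86.6, 25.0 and 28.3 CPM in pcDNA4c Control, so that the first pcDNA4c Control library lay above the first pcDNA4c mCsnk2a1 library. Group names below are those of the labels.

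When summed, the lysosomal genes stood about level in 3 groups and high in the fourth, a pattern that Lamp1, Lgmn and Grn did not fully follow as single genes. Their summed level was 414, 482 and 553 CPM in shRNA mCsnk2a1, against 443, 432 and 447 CPM in shRNA Control. It was 448, 536 and 493 CPM in pcDNA4c mCsnk2a1, against 4282, 4240 and 3583 CPM in pcDNA4c Control. Every pcDNA4c Control library thus lay far above the other 9, which spanned less than the distance to it. All 9 genes passed the filter on low counts. A count for each of the 9 genes was present in 9 of the 12 libraries, while the second pcDNA4c mCsnk2a1 library had counts for 6 of them and the first shRNA mCsnk2a1 and last shRNA Control libraries for 8.

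**Figure D1:**
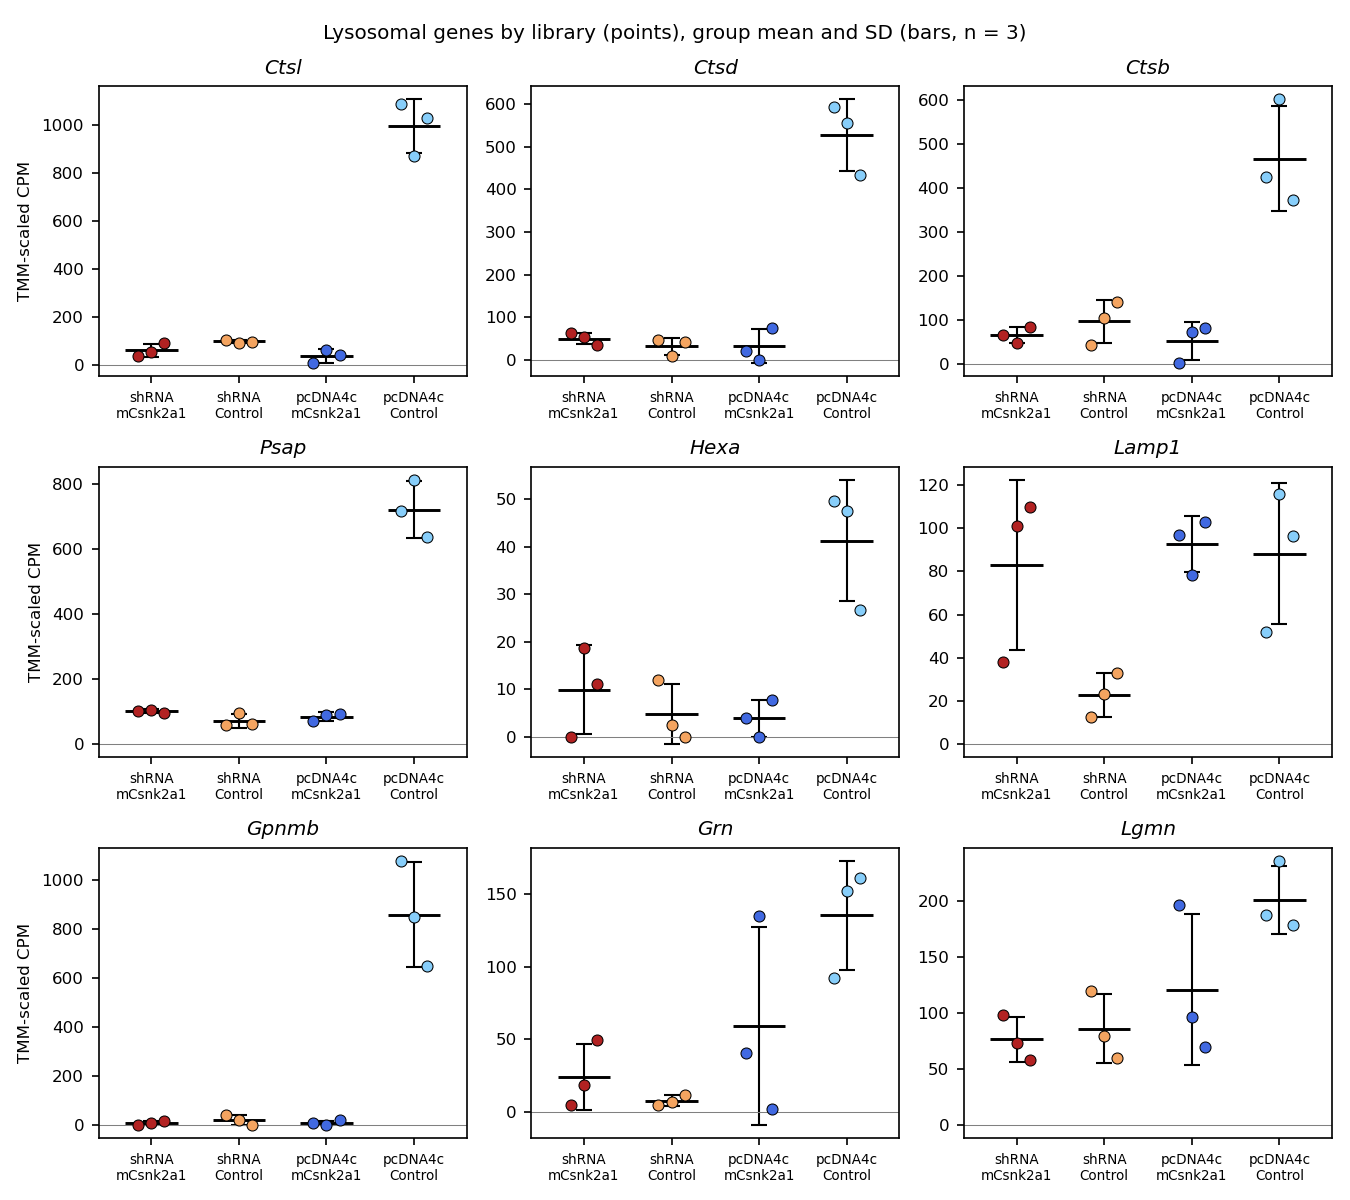
Level of each of the 9 lysosomal genes in TMM-scaled CPM (vertical axes, each with its own scale) in each library (points) of the 4 groups, with the group mean and SD (bars, n = 3). For Ctsl, Ctsd, Ctsb, Psap, Hexa and Gpnmb the 3 pcDNA4c Control points lie above all others, as for Ctsl at 871 to 1089 CPM against at most 105 CPM elsewhere, and Lamp1 is lowest in shRNA Control.

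Markers of another cell type moved with the lysosomal genes. The summed level of 18 macrophage and microglia markers was 94.3 to 175 CPM in pcDNA4c mCsnk2a1, against 1064 to 1210 CPM in pcDNA4c Control. It was 66.0 to 126 CPM in shRNA mCsnk2a1, against 81.0 to 238 CPM in shRNA Control. All 18 markers had counts in pcDNA4c Control, whereas 12 had counts in shRNA mCsnk2a1, 13 in shRNA Control and 9 in pcDNA4c mCsnk2a1. The complement gene C1qa and the adaptor gene Tyrobp were at 0 in every library of those 3 groups, and in pcDNA4c Control they averaged 54.5 ± 20.6 and 24.6 ± 5.92 CPM (SD, n = 3). Fcer1g was at 0 in shRNA mCsnk2a1 and shRNA Control, and Lyz2 in shRNA mCsnk2a1 and pcDNA4c mCsnk2a1. For 9 of the 18 markers, C1qa, C1qb, Csf1r, Cx3cr1, Itgam, Lyz2, Mpeg1, Trem2 and Tyrobp, all 3 pcDNA4c Control libraries lay above the other 9, and for the other 9 markers they did not. Among those, Cd74 averaged 2.16 CPM in pcDNA4c Control, against 4.16 CPM in shRNA Control, and Spi1 averaged 5.04 CPM in pcDNA4c Control, against 4.92 CPM in shRNA Control. Whether macrophage or microglia RNA was present, and any part of it in the lysosomal levels, was not tested.

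Other marker sums did not set pcDNA4c Control apart in this way. The 11 pigment epithelium markers summed to 30.7 to 112 CPM in shRNA mCsnk2a1, 47.0 to 68.4 CPM in shRNA Control, 66.1 to 103 CPM in pcDNA4c mCsnk2a1 and 42.5 to 132 CPM in pcDNA4c Control, ranges that overlap. The 10 vascular and blood markers likewise spanned 98.0 to 159 CPM in pcDNA4c mCsnk2a1 and 115 to 192 CPM in pcDNA4c Control. They spanned 120 to 292 CPM in shRNA mCsnk2a1 and 95.4 to 418 CPM in shRNA Control. Of these 10 markers 1, Cdh5, had all 3 pcDNA4c Control libraries above the other libraries, at 19.2 to 39.3 CPM against at most 5.95 CPM. Müller glia markers summed to 570 to 603 CPM in pcDNA4c mCsnk2a1, against 327 to 475 CPM in pcDNA4c Control. In shRNA mCsnk2a1 they summed to 856 to 1239 CPM, against 447 to 773 CPM in shRNA Control. The 14 rod markers summed to 6030 to 12556 CPM in pcDNA4c mCsnk2a1, against 6218 to 7994 CPM in pcDNA4c Control, and to 13557 to 15381 CPM in shRNA mCsnk2a1, against 6258 to 8648 CPM in shRNA Control.

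**Figure D2:**
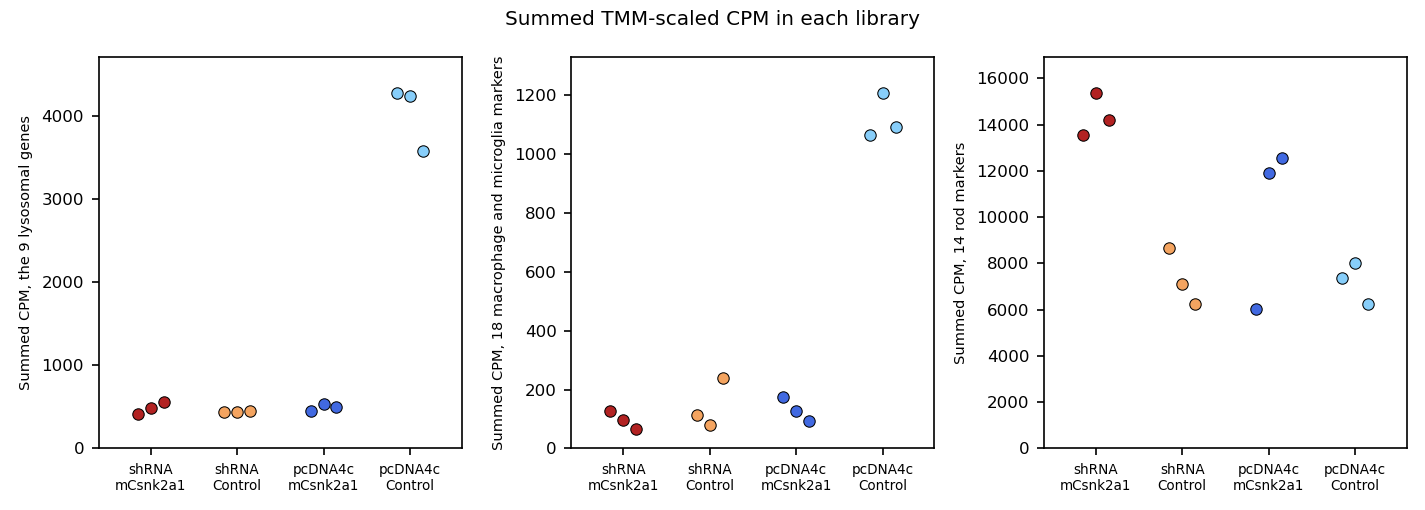
Summed TMM-scaled CPM in each library (points) of the 9 lysosomal genes, 18 macrophage and microglia markers and 14 rod markers (vertical axes start at 0). The pcDNA4c Control libraries lie at 3583 to 4282 CPM for the lysosomal genes and 1064 to 1210 CPM for the macrophage and microglia markers, above the other 9 libraries in both panels, and overlap them for the rod markers.

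Ctsl and Ctsb, which encode the cysteine proteases cathepsin L and cathepsin B, were the 2 closest members in their levels over the libraries, as given below. Ctsl (ENSMUSG00000021477; GRCm38 chromosome 13, 64359337 to 64370890, minus strand) had 39.1, 55.1 and 92.0 CPM in shRNA mCsnk2a1, against 105, 91.1 and 97.0 CPM in shRNA Control. It had 7.44, 63.0 and 41.0 CPM in pcDNA4c mCsnk2a1, against 1089, 871 and 1028 CPM in pcDNA4c Control. The highest knockdown value lies just inside the control hairpin's range, so those groups overlap in CPM, while in TPM they do not, at 11.2 to 27.9 in shRNA mCsnk2a1, against 36.8 to 42.1 in shRNA Control. The vector groups are far apart. Its log2 difference was -0.66 (SE 0.55) for knockdown and -4.74 (SE 0.64), 26.7-fold lower, for overexpression. Between the control vectors, pcDNA4c Control minus shRNA Control, it was 3.35 (SE 0.60).

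Ctsb (ENSMUSG00000021939; chromosome 14, 63122462 to 63145923, plus strand) had 67.2, 48.6 and 84.9 CPM in shRNA mCsnk2a1, against 44.1, 106 and 142 CPM in shRNA Control. It had 2.62, 73.9 and 81.6 CPM in pcDNA4c mCsnk2a1, against 425, 602 and 374 CPM in pcDNA4c Control. Its lowest value, in the first pcDNA4c mCsnk2a1 library, stood well under the other two of that group, as did that of Ctsl. On the log2 scale it differed by -0.54 (SE 0.75) for knockdown, -3.14 (SE 0.81) for overexpression and 2.26 (SE 0.78) between the control vectors.

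Ctsd (ENSMUSG00000007891; chromosome 7, 142375911 to 142388038, minus strand) encodes cathepsin D, the main aspartic protease of lysosomes. It had 62.3, 53.5 and 35.7 CPM in shRNA mCsnk2a1, against 46.2, 9.53 and 42.0 CPM in shRNA Control. It had 20.6, 0 and 76.2 CPM in pcDNA4c mCsnk2a1, against 594, 555 and 434 CPM in pcDNA4c Control. The pcDNA4c mCsnk2a1 libraries thus spread between 0 and the highest Ctsd level outside pcDNA4c Control, and stayed below every pcDNA4c Control library. The log2 difference was 0.63 (SE 0.98) for knockdown, -4.03 (SE 1.10) for overexpression and 4.02 (SE 1.10) between the control vectors. With limma voom in place of edgeR the overexpression difference of Ctsd was -6.53.

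Lgmn (ENSMUSG00000021190; chromosome 12, 102394084 to 102439813, minus strand) encodes legumain, the asparaginyl endopeptidase that cuts cathepsin precursors. It had 98.0, 73.2 and 58.5 CPM in shRNA mCsnk2a1, against 119, 79.8 and 59.6 CPM in shRNA Control. It had 197, 96.2 and 69.5 CPM in pcDNA4c mCsnk2a1, against 187, 236 and 179 CPM in pcDNA4c Control. Both pairs overlap, and Lgmn had counts in all 12 libraries, never under 58.5 CPM. Its log2 difference was -0.17 (SE 0.56) for knockdown and -0.73 (SE 0.56) for overexpression. Between the control vectors it was 1.22 (SE 0.57), the smallest of the 9 genes, with all pcDNA4c Control libraries above all shRNA Control libraries.

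Psap (ENSMUSG00000004207; chromosome 10, 60277627 to 60302597, plus strand) encodes prosaposin, which is cut into saposins, the small cofactors that present sphingolipids to their hydrolases. Outside pcDNA4c Control it stayed between 57.6 and 106 CPM, relative to its level the narrowest range of the 9 genes. It had 103, 106 and 95.9 CPM in shRNA mCsnk2a1, against 57.6, 95.3 and 60.7 CPM in shRNA Control, with no overlap in CPM but with the nearest values almost equal. It had 70.9, 89.6 and 94.0 CPM in pcDNA4c mCsnk2a1, against 715, 810 and 635 CPM in pcDNA4c Control. On the log2 scale it differed by 0.51 (SE 0.41) for knockdown, -3.08 (SE 0.44) for overexpression and 3.34 (SE 0.45) between the control vectors. Scaled by library size alone the shRNA groups of Psap overlapped, at 89.4 to 98.2 CPM in shRNA mCsnk2a1, against 61.2 to 102 CPM in shRNA Control.

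Hexa (ENSMUSG00000025232; chromosome 9, 59539540 to 59565109, plus strand) encodes the alpha subunit of beta-hexosaminidase, which removes a terminal sugar from ganglioside GM2. It had the fewest counts over the 12 libraries, with 0, 18.8 and 11.0 CPM in shRNA mCsnk2a1, against 11.9, 2.38 and 0 CPM in shRNA Control. It had 3.94, 0 and 7.72 CPM in pcDNA4c mCsnk2a1, against 49.7, 47.5 and 26.6 CPM in pcDNA4c Control. At 92, 27 and 32 estimated counts summed over shRNA mCsnk2a1, shRNA Control and pcDNA4c mCsnk2a1, its order among those groups was not detectable at this depth. In pcDNA4c Control it had 244 estimated counts in all. The log2 difference was 1.05 (SE 1.84) for knockdown, -3.39 (SE 1.98) for overexpression and 3.09 (SE 1.96) between the control vectors.

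Grn (ENSMUSG00000034708; chromosome 11, 102430315 to 102437048, plus strand) encodes progranulin, a secreted glycoprotein that also reaches lysosomes and is cut there into granulins. It had 4.88, 18.5 and 49.2 CPM in shRNA mCsnk2a1, against 4.67, 6.55 and 11.9 CPM in shRNA Control. It had 40.7, 135 and 2.01 CPM in pcDNA4c mCsnk2a1, against 92.5, 153 and 161 CPM in pcDNA4c Control. Grn was uneven within pcDNA4c mCsnk2a1: 1 library of that group reached the range of pcDNA4c Control and another was near 0. Its log2 difference was 1.64 (SE 1.08) for knockdown, -1.19 (SE 1.05) for overexpression and 4.13 (SE 1.18) between the control vectors.

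Gpnmb (ENSMUSG00000029816; chromosome 6, 49036546 to 49070929, plus strand) encodes a transmembrane glycoprotein of endosomes, lysosomes and melanosomes that macrophages and pigment cells are known to make. It had 1.88, 7.08 and 16.0 CPM in shRNA mCsnk2a1, against 41.5, 18.5 and 1.14 CPM in shRNA Control. It had 7.87, 0 and 18.5 CPM in pcDNA4c mCsnk2a1, against 1077, 849 and 649 CPM in pcDNA4c Control. As a ratio this was the widest gap of the 9 genes: the lowest pcDNA4c Control library was at 649 CPM and the highest of the other 9 libraries at 41.5 CPM. On the log2 scale it differed by -1.29 (SE 1.04) for knockdown, -6.60 (SE 1.28), 97.3-fold lower, for overexpression and 5.39 (SE 1.20) between the control vectors.

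Lamp1 (ENSMUSG00000031447; chromosome 8, 13159161 to 13175338, plus strand) encodes an abundant glycoprotein of the lysosomal membrane that is widely used as a lysosome marker. As for Lgmn and Grn, its pcDNA4c Control libraries did not all lie above every other library. It had 37.9, 101 and 110 CPM in shRNA mCsnk2a1, against 12.4, 23.2 and 32.9 CPM in shRNA Control. It had 97.1, 78.3 and 103 CPM in pcDNA4c mCsnk2a1, against 52.1, 116 and 96.4 CPM in pcDNA4c Control. The shRNA groups did not overlap and the pcDNA4c groups did. The log2 difference was 1.86 (SE 0.71) for knockdown, 0.07 (SE 0.68) for overexpression and 1.95 (SE 0.71) between the control vectors. The overexpression difference of Lamp1 took the other sign when libraries were scaled by their size alone or when the first pcDNA4c Control library was left out, with a range of -0.19 to 0.31 over 20 alternatives.

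Across the 9 genes, the pcDNA4c mCsnk2a1 libraries all lay below the pcDNA4c Control libraries for 6 genes, Ctsl, Ctsd, Ctsb, Psap, Hexa and Gpnmb. Of all 20267 genes tested, 11.8% did so. The shRNA mCsnk2a1 libraries lay above those of shRNA Control for 2 genes, Psap and Lamp1 in CPM, as did those of 5.61% of all genes. Per length, in TPM, both pairs overlapped, with Psap at 16.5 to 18.7 in shRNA mCsnk2a1, against 13.1 to 21.9 in shRNA Control, and Lamp1 at 7.45 to 22.7 in shRNA mCsnk2a1, against 3.39 to 8.63 in shRNA Control. Between the control vectors all 9 genes lay higher in pcDNA4c Control, as did 8.56% of all genes. Because these contrasts chose the genes, nothing is read from these counts. Overexpression and the comparison of control vectors share the pcDNA4c Control libraries, and knockdown and that comparison share the shRNA Control libraries.

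For 6 of the 9 genes all 3 pcDNA4c Control libraries lay above the other 9, which is a description of how they were chosen (1.49% of all genes tested did so). Hexa was just inside this pattern, with 26.6 CPM in its lowest pcDNA4c Control library against 18.8 CPM in the highest of the other 9. Lgmn was just outside, with 179 CPM against 197 CPM, and Grn, with 92.5 CPM against 135 CPM, and Lamp1, with 52.1 CPM against 110 CPM, follow. The median log2 difference over the 9 genes was 0.51 for knockdown, -3.14 for overexpression and 3.34 between the control vectors, and over all genes tested it was -0.03, -0.16 and 0.00.

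Levels of different genes were set side by side per length, as TPM, the length-corrected share of transcripts. In shRNA mCsnk2a1 the order of mean TPM was Lgmn 22.8, Ctsl 18.7, Psap 17.3, Lamp1 17.3, Ctsd 11.0, Grn 8.64, Ctsb 7.94, Hexa 2.38 and Gpnmb 1.58. In shRNA Control it was Ctsl 38.6, Lgmn 34.0, Psap 16.0, Ctsb 15.1, Ctsd 9.37, Lamp1 6.17, Gpnmb 5.16, Grn 3.59 and Hexa 1.50. Neighbours in these orders were mostly closer than their spread: in shRNA mCsnk2a1 the first 4 had SDs of 5.23, 8.44, 1.23 and 8.52 TPM (n = 3). In pcDNA4c mCsnk2a1 the order was Lgmn 40.8, Grn 23.3, Lamp1 21.3, Psap 16.1, Ctsl 12.3, Ctsd 7.89, Ctsb 6.92, Gpnmb 1.86 and Hexa 1.00. In pcDNA4c Control it was Ctsl 261, Gpnmb 141, Psap 107, Ctsd 101, Lgmn 52.3, Ctsb 48.2, Grn 42.0, Lamp1 15.9 and Hexa 8.28.

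Psap, Lgmn and Ctsl were thus among the first 5 in every group. Gpnmb was last or nearly last in shRNA mCsnk2a1 and pcDNA4c mCsnk2a1 and second in pcDNA4c Control. The order depended on the transcripts counted: over protein-coding transcripts alone Ctsl was at 5.61 TPM and Lgmn at 13.4 TPM in shRNA mCsnk2a1, below Psap and Lamp1, and Gpnmb at 85.0 TPM came after Ctsl, Psap and Ctsd in pcDNA4c Control. Over all transcripts of that group Ctsl, at 261 ± 32.6 TPM, stood clear of Gpnmb, at 141 ± 31.2 TPM, while Psap, at 107 ± 10.1 TPM, and Ctsd, at 101 ± 12.7 TPM, differed by less than their SDs (n = 3).

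The transcripts of Psap differed between the groups as well as its level. Its annotated coding transcripts differ at a place between 2 coding exons, where Psap-205 carries a 9-base exon (GRCm38 chr10:60297537-60297545, plus strand) and Psap-201 a 6-base extension of the exon after it (chr10:60299092-60299097), while Psap-202, which is another coding form, has neither. Psap-203, with another first exon, has neither as well, and Psap-204 carries a different insert there and was counted with the forms that lack CAGGATCAG. The short exon is known to be included mainly in brain, heart and skeletal muscle and skipped in most other tissues. The 3 junctions are shown because the result below turns on them, with the inserted bases in capitals between the last 30 bases of one exon and the first 30 of the next, from GENCODE M21 transcripts.
Psap-205: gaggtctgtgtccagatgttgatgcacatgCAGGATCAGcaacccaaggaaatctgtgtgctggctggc
Psap-201: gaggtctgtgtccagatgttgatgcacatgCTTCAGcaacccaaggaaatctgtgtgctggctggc
Psap-202: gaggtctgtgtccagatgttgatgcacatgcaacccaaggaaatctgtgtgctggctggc

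Transcripts with the 9-base exon held 100%, 100% and 98.2% of the Psap TPM in pcDNA4c mCsnk2a1, against 0%, 0.473% and 0% in pcDNA4c Control. The means were 99.4% ± 1.03 and 0.158% ± 0.273 (SD, n = 3). Nearly all Psap RNA was thus assigned to the form with CAGGATCAG in pcDNA4c mCsnk2a1, and to forms without it in pcDNA4c Control. In shRNA mCsnk2a1 the share was 56.4%, 0% and 100%, against 100%, 0.989% and 72.6% in shRNA Control, a spread over almost the whole range in both. Of the 2 libraries near 0, the second of shRNA mCsnk2a1 had 93.0% of its Psap TPM on the form with the 6-base extension, and the second of shRNA Control had 95.9% on forms with neither insert.

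In TPM, Psap-205 was at 13.9, 16.8 and 17.4 in pcDNA4c mCsnk2a1, against 0, 0.558 and 0 in pcDNA4c Control. Psap-202 was the main form in pcDNA4c Control, at 98.8, 117 and 83.6 TPM, and in the last of these libraries Psap-204 had 7.43 TPM. The higher Psap level of pcDNA4c Control therefore consisted of the form that skips the exon, and the form with it was lower there. The shares come from the authors' transcript estimates, in which few reads cover so short an exon and a library's reads can be given to 1 form almost whole. They were looked at after the values were known, in the contrasts that chose the genes, so no test is given. The macrophage and microglia markers given above also separate these groups, and their part in the exon share was not tested.

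**Figure D3:**
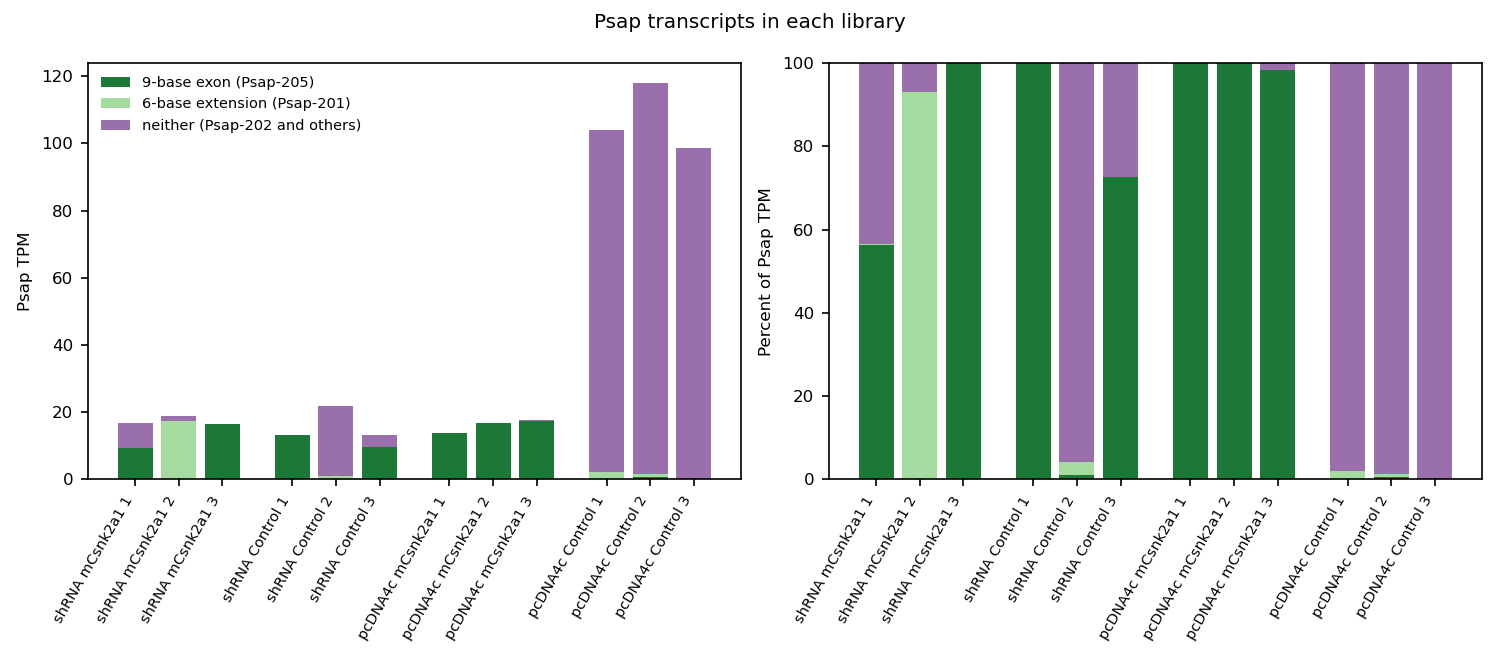
Psap transcripts in each library, in TPM (left) and as percent of the library's Psap TPM (right), stacked by form: with the 9-base exon, with the 6-base extension, or with neither. The 3 pcDNA4c mCsnk2a1 libraries are almost all 9-base exon (98.2% to 100%), the 3 pcDNA4c Control libraries are almost all neither (98.0% to 100%), and the shRNA groups vary between libraries.

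Other members also varied in transcript form. These forms too were looked at after the values were known, and rest on the same transcript estimates as those of Psap. No test and no share over all genes is given for them. Grn-201, the coding transcript of Grn that is annotated as complete, was at 0, 5.26 and 0 TPM in pcDNA4c mCsnk2a1, against 20.97, 26.9 and 14.2 TPM in pcDNA4c Control. It was at 1.50, 0 and 1.66 TPM in shRNA mCsnk2a1, against 0 TPM in all 3 shRNA Control libraries. So the 40.7 and 135 CPM of Grn in pcDNA4c mCsnk2a1 fell mostly on other transcripts, and the complete form separated pcDNA4c Control from the other 9 libraries where the gene's own level did not. Transcripts annotated as retained introns held 17.3%, 31.9% and 0% of the Grn TPM in pcDNA4c mCsnk2a1, against 0.00215%, 30.1% and 40.3% in pcDNA4c Control. They held 0%, 0% and 84.9% in shRNA mCsnk2a1, against 46.9%, 0% and 0% in shRNA Control, so that in each shRNA group a single library carried them all.

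Gpnmb-201, a coding transcript of Gpnmb, was at 0 TPM in every pcDNA4c mCsnk2a1 and shRNA mCsnk2a1 library, at 1.12, 0 and 0.273 TPM in shRNA Control and at 50.3, 45.9 and 44.7 TPM in pcDNA4c Control. Gpnmb-203, another coding transcript, held 81.0% of the Gpnmb TPM in shRNA mCsnk2a1, 100% in pcDNA4c mCsnk2a1 and 49.5% in shRNA Control. In the shRNA groups part of the low Gpnmb level fell on Gpnmb-205, annotated as a retained intron. Another retained intron, Gpnmb-204, was at 93.3, 24.8 and 32.0 TPM in pcDNA4c Control and at 0 TPM in every other library. Retained introns held 36.3% of the Gpnmb TPM in pcDNA4c Control, against 0% in pcDNA4c mCsnk2a1, 19.0% in shRNA mCsnk2a1 and 41.4% in shRNA Control. The share in shRNA Control came from a single library, with Gpnmb-205 at 6.42, 0 and 0 TPM. That in shRNA mCsnk2a1 rested on very low levels, with Gpnmb-205 at 0.246, 0 and 0.651 TPM. Ctsb-201 held 100%, 100% and 69.8% of the Ctsb TPM in pcDNA4c mCsnk2a1, against 90.6%, 81.6% and 100% in pcDNA4c Control. In shRNA mCsnk2a1 it held 34.4%, 66.6% and 63.9%, against 68.7%, 71.1% and 33.0% in shRNA Control, with much of the rest on a retained intron. For Lgmn, retained introns held 70.7%, 49.8% and 24.4% of the TPM in pcDNA4c mCsnk2a1, against 10.3%, 20.3% and 11.5% in pcDNA4c Control, with no overlap. They held 66.0%, 10.1% and 42.4% in shRNA mCsnk2a1, against 23.4%, 18.9% and 11.7% in shRNA Control, which overlap. Over protein-coding transcripts alone Lgmn was at 15.9 to 19.9 TPM in pcDNA4c mCsnk2a1, against 43.0 to 48.0 TPM in pcDNA4c Control. Groups which overlap for the whole gene thus did not overlap for its coding forms as estimated. Within a group the estimates could give a library to 1 coding form almost whole. In pcDNA4c mCsnk2a1 Lgmn-201 was at 0, 0 and 17.4 TPM and Lgmn-202 at 19.9, 15.9 and 0 TPM. Hexa and Lamp1 were each measured on a single transcript.

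The upstream sequence of Lamp1 is shown because its window holds the most CACGTG cores of the members. Of the 250 bases before the RefSeq start (GRCm38.p6), the last 76, chr8:13159085-13159160 on the plus strand, hold 4 of them, in capitals.
Lamp1: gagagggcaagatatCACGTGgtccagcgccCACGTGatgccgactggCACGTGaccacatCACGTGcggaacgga

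CACGTG reads the same on both strands and was searched in the 250 bases before each RefSeq start, where 8 of the 9 genes matched by symbol and Ctsb did not. It was found 4 times before Lamp1, 2 times before Ctsd, and 1 time each before Ctsl and a second start of Lgmn, and not before the listed starts of Psap, Hexa, Gpnmb and Grn. Of all 32851 windows in the table, 6.02% held it. The members were chosen on their levels, and whether a match bears on those levels was not tested. A match describes the letters of a window only.

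Genes outside the members whose level followed one most closely were named by the smallest root mean square difference of log2 CPM, centred on each gene, over the 12 libraries. For Gpnmb they were Vsir (1.52), Mpeg1 (1.54), a macrophage marker, and Lyz2 (1.55), the lysozyme gene of myeloid cells, the loosest matches of any member. Outside pcDNA4c Control these genes averaged at most 4.32 CPM in any group, and the matches were drawn from levels that chose Gpnmb. Those of Ctsd were Usp20 (1.31), Slc25a40 (1.33) and Polr3b (1.36). Hexa had Eif2ak3 (0.87), Gm42716 (0.90) and Crat (1.03), and Grn had Ccdc7a (0.99), Mgat5b (1.04) and 2310015A10Rik (1.06). For Ctsb they were Incenp (0.74), H2-D1 (0.82), a class I histocompatibility gene, and Snord49a (0.90). For Lamp1 they were Amer2 (0.58), Xpo7 (0.58) and Tlk1 (0.59), and for Lgmn they were Alms1 (0.40), Gm17604 (0.41) and Rock1 (0.44). For Ctsl (nearest Cfb, 0.94) and Psap (nearest Fsd2, 0.27) the closest genes were at or near 0 outside pcDNA4c Control and low in it, where the prior count of 2 narrows every difference, so that these matches say little. Members were left out of these searches. Among the members the closest pairs were Ctsl and Ctsb (0.84), Psap and Lgmn (1.02) and Lamp1 and Lgmn (1.10).

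The rest of the lysosome was described with 107 other genes in 6 lists, of which 103 had enough counts to be tested. In edgeR's quasi-likelihood test adjusted over all 20267 genes, 0 of the 103 passed under knockdown, overexpression or between the control vectors, where 0.0%, 0.0987% and 0.0691% of all genes passed. Past an unadjusted p of 0.05 lay 7 of them under knockdown (2 higher, 5 lower; 8.33% of all genes were past it), 11 under overexpression (4 higher, 7 lower; 8.73%) and 5 between the control vectors (4 higher, 1 lower; 4.21%). DESeq2 called 1 under knockdown, limma voom 1 under overexpression. Their median log2 difference was 0.32 for knockdown, -0.22 for overexpression and 0.48 between the control vectors, against 0.51, -3.14 and 3.34 for the 9 genes. Over all genes the medians were -0.03, -0.16 and 0.00. The 9 were chosen on these differences, so nothing is read from their distance to the 103. Between the control vectors 22 of the 103 lay higher without overlap (21.4%, against 8.56% of all genes) and 2 lower (1.94%, against 5.13%). Under overexpression 19 lay lower (18.4%, against 11.8%) and 4 higher (3.88%, against 3.73%). Under knockdown 5 lay higher (4.85%, against 5.61%) and 8 lower (7.77%, against 6.68%).

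**Figure D4:**
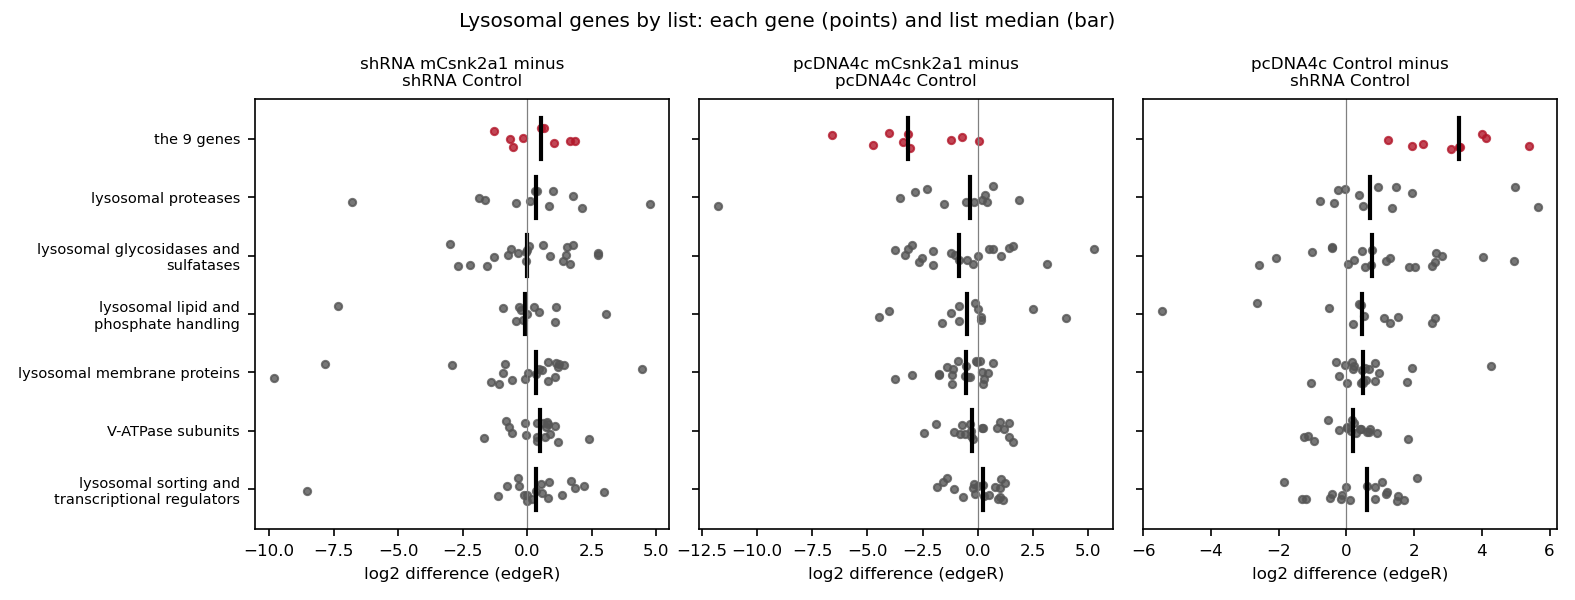
Log2 difference of each tested gene (points) and the median (bars) for the 9 lysosomal genes and 6 lists of other lysosomal genes, for shRNA mCsnk2a1 minus shRNA Control, pcDNA4c mCsnk2a1 minus pcDNA4c Control and pcDNA4c Control minus shRNA Control. The medians of the 6 lists lie between -0.83 and 0.22 in the middle panel and between 0.20 and 0.75 in the right panel. The 9 genes, which were chosen on these differences, have medians of -3.14 and 3.34 there.

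Some soluble hydrolases did share the pattern. All 3 pcDNA4c Control libraries lay above the other 9 for 6 of the 103 genes, among them Ctss, Ctsz, Man2b1, Neu1 and Gm2a, named after their values were seen, against 1.49% of all genes. They were 2 of 12 proteases, 3 of 21 glycosidases and sulfatases and 1 of 12 genes of lipid and phosphate handling. None was among the 21 membrane proteins, 18 V-ATPase subunits or 19 genes of sorting and regulation.

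The 12 other proteases had medians of 0.32, -0.35 and 0.71 on the log2 scale for knockdown, overexpression and the control vectors. Ctss, cathepsin S, a cysteine protease of antigen-presenting cells, was at 0 in all pcDNA4c mCsnk2a1 libraries, against 188 ± 51.8 CPM in pcDNA4c Control. It was at least 529-fold lower, taken at a floor of 3 counts over the group, with an adjusted p of 0.0745 in edgeR. Over 20 alternatives of the analysis that adjusted p ranged between 1.5e-08 and 0.175 and was under 0.05 in 11. Ctss was also at 0 in shRNA mCsnk2a1, against 5.86 ± 10.2 CPM in shRNA Control (edgeR adjusted p = 0.598). Ctsf, cathepsin F, the most abundant of the list, had 134 ± 99.8 CPM in shRNA mCsnk2a1, against 38.9 ± 18.4 CPM in shRNA Control, and 120 ± 87.8 CPM in pcDNA4c mCsnk2a1, against 32.7 ± 15.9 CPM in pcDNA4c Control. Tpp1, which trims peptides, had 86.3 CPM in pcDNA4c mCsnk2a1, against 96.1 CPM in pcDNA4c Control, close to level, and none of these passed the test.

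Glycosidases and sulfatases had medians of -0.02, -0.83 and 0.75 for these comparisons. Man2b1, an alpha-mannosidase, had 13.7 ± 15.2 CPM in pcDNA4c mCsnk2a1, against 137 ± 31.2 CPM in pcDNA4c Control (-3.32, SE 1.41). Neu1, the lysosomal sialidase, had 25.7 ± 18.9 CPM in pcDNA4c mCsnk2a1, against 150 ± 76.6 CPM in pcDNA4c Control. Fuca1, a fucosidase, had 8.77 ± 8.83 CPM in pcDNA4c mCsnk2a1, against 69.9 ± 19.7 CPM in pcDNA4c Control. Between the pcDNA4c groups these 3 ran the way of Hexa without passing the test. Unlike Hexa, Fuca1 reached 116 CPM in a library outside pcDNA4c Control, above the 49.2 to 88.5 CPM of pcDNA4c Control. Manba, a beta-mannosidase, had 22.8 CPM in pcDNA4c mCsnk2a1, against 26.4 CPM in pcDNA4c Control. Sgsh, a heparan sulfatase, ran the other way, at 86.5 ± 120 CPM in pcDNA4c mCsnk2a1, against 2.20 ± 3.38 CPM in pcDNA4c Control (5.28, SE 2.00; edgeR adjusted p = 0.568).

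The 12 genes of lipid and phosphate handling had medians of -0.08, -0.48 and 0.46. Gm2a, the activator that works with beta-hexosaminidase as saposins do with other enzymes, had 2.15 ± 2.37 CPM in pcDNA4c mCsnk2a1, against 49.0 ± 26.5 CPM in pcDNA4c Control (-4.48, SE 1.93). Smpd1, acid sphingomyelinase, ran opposite to the members. It had 92.3 ± 59.4 CPM in pcDNA4c mCsnk2a1, against 16.1 ± 4.06 CPM in pcDNA4c Control (2.52, SE 0.81; edgeR adjusted p = 0.568), and shRNA Control had 100 ± 51.2 CPM. Lipa, the acid lipase, had 0.119 ± 0.206 CPM in shRNA mCsnk2a1, against 27.2 ± 21.4 CPM in shRNA Control (edgeR adjusted p = 0.598). Pld3 had 50.0 ± 77.3 CPM in pcDNA4c mCsnk2a1, against 91.2 ± 72.6 CPM in pcDNA4c Control, a difference within the SDs.

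The 21 other membrane proteins had a median log2 difference of 0.34 for knockdown, -0.54 for overexpression and 0.48 between the control vectors. Laptm4b and Clcn7, a chloride exchanger, had the highest mean TPM of that list, at 38.0 and 34.5 over the 12 libraries, and neither passed the test in any comparison. Scarb2, the receptor that carries glucocerebrosidase, had 75.0 ± 16.8 CPM in shRNA mCsnk2a1, against 31.7 ± 6.34 CPM in shRNA Control (1.24, SE 0.61), and 111 ± 47.7 CPM in pcDNA4c Control. Like Lamp1, it was lowest in shRNA Control. Mcoln1, a lysosomal calcium channel, had 20.9 ± 6.07 CPM in pcDNA4c mCsnk2a1, against 70.4 ± 45.7 CPM in pcDNA4c Control. Laptm5, a lysosomal protein of blood cells, was at 0 in shRNA mCsnk2a1, against 47.9 ± 45.0 CPM in shRNA Control, at least 139-fold lower (edgeR adjusted p = 0.598, and 0.000233 to 0.758 over 20 alternatives). Cd68, a macrophage marker protein, had 1.68 ± 2.91 CPM in pcDNA4c mCsnk2a1, against 23.6 ± 5.46 CPM in pcDNA4c Control. The highest library outside pcDNA4c Control had 26.4 CPM of Cd68, within the 17.7 to 28.5 CPM of pcDNA4c Control.

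The 18 V-ATPase subunits had medians of 0.49, -0.26 and 0.20 for the same comparisons, and the 19 genes of sorting and regulation 0.32, 0.22 and 0.61. Atp6v0a1, a membrane subunit of the pump, had 151 ± 31.3 CPM in shRNA mCsnk2a1, against 65.7 ± 45.1 CPM in shRNA Control (1.20, SE 0.64), and 231 ± 132 CPM in pcDNA4c Control. Atp6v1a, the catalytic subunit, had 204 ± 167 CPM in pcDNA4c mCsnk2a1, against 67.0 ± 8.96 CPM in pcDNA4c Control (1.61, SE 0.68). Atp6v0c, of the proton-carrying ring, had 118 ± 13.7 CPM in pcDNA4c Control, against 73.1 ± 16.7 CPM in shRNA Control. These differences did not pass the test. Tfeb was at 0 in shRNA mCsnk2a1, against 19.4 ± 27.1 CPM in shRNA Control, whose SD exceeds the mean (edgeR adjusted p = 0.598). Gga1, a sorting adaptor of the Golgi, had 52.5 ± 8.20 CPM in shRNA mCsnk2a1, against 6.66 ± 5.83 CPM in shRNA Control (2.96, SE 1.23), and Lamtor3, of the complex that anchors mTORC1, 55.4 ± 47.1 CPM in shRNA mCsnk2a1, against 15.5 ± 5.87 CPM in shRNA Control. Rraga, a GTPase that recruits mTORC1 to lysosomes, had 155 ± 66.1 CPM in pcDNA4c mCsnk2a1, against 74.9 ± 28.3 CPM in pcDNA4c Control.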

How the data were processed

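Total RNA of picked rods was sequenced from paired ends from SMARTer Stranded Pico libraries, per the labels' protocols; kallisto 0.45.0, edgeR 3.28 and mm10 are named in the submitters' processing notes. The deposited gene table holds estimated counts for 52962 genes, and the deposited transcript table, titled as counts, holds TPM for 141196 transcripts. A further deposited table of scaled signal in CPM units covers 11 libraries and was the gene value times a constant per library. Of 2112 genes over 5 TPM in all libraries, 98.6% had a gene count equal to TPM times a gene and a library constant within 1%, so the gene counts carry the transcript estimates.

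Estimated counts were rounded, filtered with filterByExpr (minimum 10, leaving 20267 genes), scaled by TMM and fitted for all 12 libraries in 1 quasi-likelihood model with 4 groups (R 4.3.3, edgeR 4.0.16), tested on simulated data. Alternatives used RLE factors, library size alone, other filters, DESeq2 1.42.0, limma 3.58.1 with voom, a replicate block, only the libraries compared, and each library left out. Standard errors come from the quasi-likelihood F statistic. A group at 0 was set to 3 counts for a bound. The floor and intervals cover counting error only, as the kit has no molecular identifiers. Named genes of the 6 lists were the 2 of highest mean TPM and that of smallest p in each comparison; Ctsz, Man2b1, Gm2a and Cd68 were also named after their values were seen. Members and lists were chosen with earlier results of these data known. GENCODE M21 (GRCm38) held 98.2% of the gene identifiers.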

Additional observations from a re-analysis of the deposited data

Results flagged for a closer look

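The log2 difference of Psap lay on opposite sides of 0 in the 2 arms of the study, at 0.51 (SE 0.41) for shRNA mCsnk2a1 minus shRNA Control and at -3.08 (SE 0.44) for pcDNA4c mCsnk2a1 minus pcDNA4c Control. Opposite signs were not particular to Psap: Ctsd (0.63 and -4.03), Hexa (1.05 and -3.39) and Grn (1.64 and -1.19) had them too. The shRNA groups of those genes overlapped. For Psap in TMM-scaled CPM the groups did not overlap in either arm. In the shRNA arm this was not so with library size alone or in TPM. The difference between the arms was not tested.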

How the results depend on the processing

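Of 540 log2 differences of the 9 genes over 20 alternatives, 2 differed from the reported value by more than its spread: Ctsd for overexpression (-6.53 with limma voom, -4.03 with edgeR) and Hexa between the control vectors (5.06 without shRNA Control 1, 3.09 with it). Signs held in all alternatives except for Lamp1 under overexpression, in 2 of them, and for Lgmn under knockdown, which reached 0.13 without shRNA Control 1. Counts of all genes passing depended on the tool. Under knockdown the count was 0 with edgeR, 93 without the filter, 183 with DESeq2, 2 with limma voom and 0 to 4 with a library left out. Under overexpression it was 20, with 111 without the filter, 253 with DESeq2, 37 with limma voom, 6 from the 6 libraries alone and 14 to 35 with a library left out. Between the control vectors it was 14, with 71 without the filter, 69 with DESeq2 and 11 to 20 with a library left out. Of the 103 other lysosomal genes, 0 passed in edgeR. Without the filter 2 passed under knockdown (Ctss and Laptm5), 1 under overexpression and 1 between the control vectors (Ctss in both), and DESeq2 called 1 under knockdown (Laptm5). Under overexpression 1, Ctss, passed with limma voom and from the 6 libraries alone. With a library left out the count was 0 to 0 under knockdown, 0 to 1 under overexpression and 0 to 1 between the control vectors. Ctss passed under overexpression without pcDNA4c Control 3 or without any 1 of the 6 shRNA libraries, and between the control vectors without shRNA Control 3. The cause of these changes was not tested.

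With the replicate number as a block the count was 1 under knockdown, 26 under overexpression and 18 between the control vectors, and for the other lysosomal genes 0, 1 (Ctss) and 0. Deviations of same-numbered libraries correlated between -0.040 and 0.010, so no pairing by number was seen. In small pools of picked cells such values cannot exclude a pairing.

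The Psap exon share differed by -5.75 percentage points for knockdown. It was 24.3 when the extension was counted with the exon, and -34.2 to 20.3 with a library left out (above 0 without shRNA mCsnk2a1 2, shRNA Control 1 or shRNA Control 3), so it has no fixed direction. The overexpression difference was 99.2 (98.9 to 99.8 with a library left out). That between the control vectors was -57.7 (-86.1 to -36.6, the last without shRNA Control 1). Scaling by library size alone shifted the median log2 difference of all genes by -0.19 for knockdown and -0.14 for overexpression, and RLE factors shifted it by -0.13 between the control vectors. Of 36 mean levels, 7 moved when TPM was summed over protein-coding transcripts only, 3 of Ctsl, 2 of Lgmn, 1 of Ctsb and 1 of Gpnmb. Low depth left the order of Hexa among the 3 low groups undetectable.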
